A study of Saccharomyces cerevisiae with 8 samples.

Results

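Transcripts of 10 genes of sphingolipid synthesis were followed in *Saccharomyces cerevisiae* grown with gentamicin and without it. The members are *LCB1*, *LCB2*, *TSC10*, *SUR2*, *LAG1*, *LAC1*, *AUR1*, *CSG2*, *SUR1* and *IPT1*, chosen by their place in the pathway. No measured value enters the rule, but earlier results of these data were known when the set was chosen. Each has 1 probe set annotated to it alone, so these are 10 of the 5656 genes with such a probe set. The series holds 8 1-colour Affymetrix yeast arrays of a strain given by a number only, without a genotype. Gentamicin arrays 5 to 8 (n = 4) came from cells that had been adapted to the drug and kept in it until collection, and control arrays 1 to 4 (n = 4) from cells that never received it. Both groups were grown in YPD and collected in mid-log phase. For gentamicin the sample labels state 500 µg/ml and the design text of the series states that figure with milligrams in place of micrograms, which leaves the true dose unsettled. The labels do not say whether the arrays of a group come from separate cultures, and the p-values then measure only the spread between these arrays.

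Sphingolipids are membrane lipids built on a long-chain base. In yeast, synthesis begins in the endoplasmic reticulum, where serine palmitoyltransferase joins serine to a fatty acyl-CoA; a reductase and a hydroxylase turn the product into the long-chain bases dihydrosphingosine and phytosphingosine, and ceramide synthase adds a very long chain fatty acid. In the Golgi, inositol phosphate and mannose are added to the ceramide, giving the complex sphingolipids that are abundant in the yeast plasma membrane. Gentamicin is an aminoglycoside antibiotic that binds ribosomal RNA, and the comparison asked which transcripts differ in cells growing in its presence.

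For most of these genes no difference between the groups passed the test. *TSC10*, the reductase that follows serine palmitoyltransferase, was 1.52-fold lower with gentamicin and was the only member that passed the test. Of the other members, 8 were tested and did not pass, and *LAG1* lay below the signal filter of the test. The values are MAS5 signals in arbitrary units, 1 per probe set and array. Differences are means of log2 signal, gentamicin minus control, and a gene was called when limma's Benjamini-Hochberg adjusted p over all 4524 tested genes was under 0.05. By that rule 46.8% of all tested genes were called, 15.5% higher and 31.3% lower, whereas 1 of the 9 tested members was called (11.1%). Under the alternatives used below, the share of all tested genes called was 38.5% after quantile normalization, 41.5% with aligned array medians and 45.4% without control 1. Of the 9 tested members, 1 was then higher and 1 lower after quantile normalization. With aligned array medians 3 were higher and 1 lower, and without control 1, 1 was higher and 2 lower. The gap between the members and all tested genes thus depended on these settings. For 6 of the 8 members not called, the 95% interval of the difference lay inside a 1.5-fold change in either direction; for *AUR1* and *IPT1* it did not. The median difference over the 9 tested members was -0.12, and over all tested genes it was also -0.12. RNA was taken from whole cultures, so less of a transcript per cell and fewer cells carrying it cannot be told apart.

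**Figure D1:**
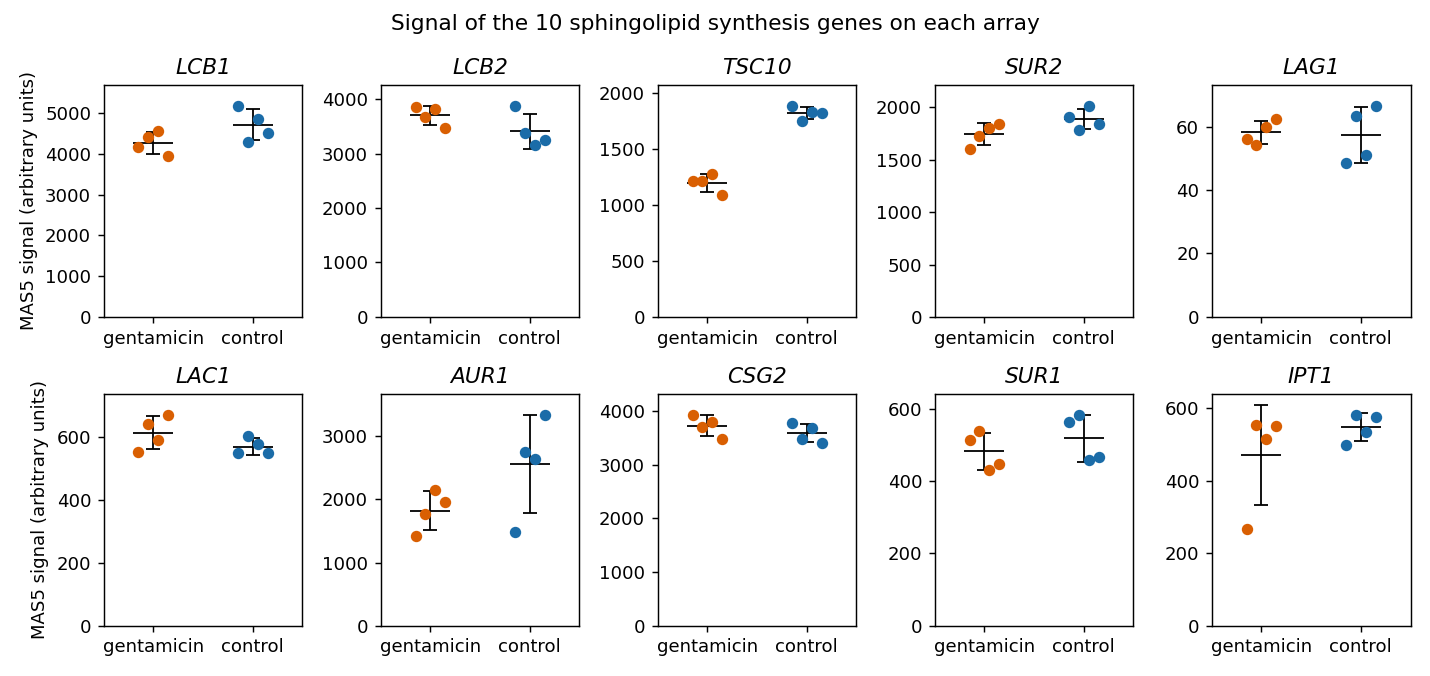
MAS5 signal in arbitrary units (vertical axes, from 0 and separate for each gene) of the 10 synthesis genes on the 4 gentamicin arrays (orange) and the 4 control arrays (blue), with each group's mean and SD. The groups lie apart for *TSC10* alone, and single low arrays are seen for *AUR1* (control 1) and *IPT1* (gentamicin 5).

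Some features of the arrays moved with the groups. The median signal was 330 ± 7.07 on the gentamicin arrays and 389 ± 7.19 on the control arrays (SD, n = 4 each), while log2 signals were spread more widely with gentamicin, with an interquartile range of 2.16 ± 0.0318 against 1.91 ± 0.0298 in controls. Both differences reached the lowest p possible with groups of 4 (exact two-sided permutation p = 0.0286, also 0.0286 after adjustment over both measures). The part of this difference in the changes of single genes was not tested. A pair of arrays held more single low values than the rest: 188 tested genes (4.16%) on gentamicin 5 and 192 (4.24%) on control 1 were over 1.5-fold below all other arrays of their group, against 6 to 70 genes on the other arrays. These lows touch *IPT1* and *AUR1* among the members, and values without those arrays are given beside them.

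The entry enzyme, serine palmitoyltransferase, is a complex of Lcb1 and Lcb2, of which Lcb2 carries the catalytic lysine. *LCB1* had signals of 4165, 4420, 4556 and 3953 on gentamicin arrays 5 to 8, against 5180, 4306, 4853 and 4528 on control arrays 1 to 4. The ranges overlapped, and the difference of -0.14 was not called (limma, 95% interval -0.31 to 0.03, adjusted p = 0.156). *LCB2* had 3853, 3673, 3829 and 3477 with gentamicin, against 3875, 3374, 3159 and 3242 in controls. Here control 1 alone stood as high as the gentamicin arrays, and the difference of 0.12 was not called (limma, 95% interval -0.05 to 0.30, adjusted p = 0.215). Without control 1 it was 0.19 and was called (limma adjusted p = 0.0373).

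The pair can also be compared within each array, which does not depend on how an array was scaled as a whole. Where the genes of a pair differ in signal, it can still depend on the spread of log2 signals, which differed between the groups. The log2 signal of *LCB1* minus that of *LCB2* was 0.11, 0.27, 0.25 and 0.18 on the gentamicin arrays, against 0.42, 0.35, 0.62 and 0.48 on the control arrays. The groups did not overlap: relative to *LCB2*, *LCB1* changed by -0.26 with gentamicin. The p was the smallest the design allows (exact two-sided permutation p = 0.0286), but it was 0.0629 after adjustment over 11 gene pairs and did not pass. At this floor a pair could pass only if most of the 11 pairs also reached it. The adjusted outcome therefore tells little about any single pair.

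*TSC10* encodes the reductase that turns the ketone made by serine palmitoyltransferase into dihydrosphingosine. Its signals were 1214, 1211, 1279 and 1088 with gentamicin, against 1885, 1748, 1832 and 1826 in controls. Every gentamicin array lay below every control array, as it did for 29.6% of all tested genes; groups lay apart in either direction for 44.8%. The means were 1198 ± 79.6 with gentamicin and 1823 ± 56.5 in controls (SD, n = 4 each), a log2 difference of -0.61 ± 0.07 (SE; 95% interval -0.76 to -0.45, limma adjusted p = 0.000136). Set against the median of all tested genes, the log2 difference of *TSC10* was -0.48, and 10.5% of tested genes had a lower difference. The call held with each array left out, with differences from -0.64 to -0.56.

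The tested genes whose log2 signals most resembled those of *TSC10* over the 8 arrays, outside the pathway lists, were *SNF5*, a subunit of the SWI/SNF chromatin remodelling complex (Pearson r = 0.998), and *BUD20*, a factor of ribosome assembly (r = 0.995). *SNF5* had 974.4, 954.5, 1013 and 908.1 with gentamicin, against 1338, 1285, 1302 and 1287 in controls. These r values are a description out of 4473 genes compared, and they rest mainly on the distance between the groups, which these genes share with *TSC10*.

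*SUR2* encodes the hydroxylase that makes phytosphingosine from dihydrosphingosine, the step after *TSC10*. It had 1602, 1727, 1801 and 1846 with gentamicin, against 1907, 1789, 2014 and 1847 in controls. The upper gentamicin values lay within the control range, and the difference of -0.12 was not called (limma, 95% interval -0.27 to 0.04, adjusted p = 0.201). Within arrays, *TSC10* minus *SUR2* was -0.40, -0.51, -0.49 and -0.76 with gentamicin, against -0.02, -0.03, -0.14 and -0.02 in controls. Relative to *SUR2*, *TSC10* thus changed by -0.49 with no overlap, though the p again stopped at the floor of the design (exact permutation p = 0.0286, adjusted over 11 pairs 0.0629).

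Ceramide synthase has the alternative catalytic subunits Lag1 and Lac1, encoded by paralogs. *LAG1* had signals of 56.2, 54.3, 59.8 and 62.5 with gentamicin, against 48.5, 63.5, 51.1 and 66.5 in controls. Array controls for sequences that yeast cells should not make reached 89.5 on 1 of 13 probe sets and at most 32.3 on the other 12. *LAG1* lies between these bounds, so a level of its transcript is not resolved, and it was left out of the test by the signal filter. Without the filter its difference was 0.03 (limma adjusted p = 0.891 over 5656 genes). *LAC1* gave a clear signal, with 551.1, 640.1, 590.7 and 669.4 with gentamicin, against 546.8, 602.8, 575.9 and 547.7 in controls. The gentamicin values spread more widely and overlapped the controls. The difference of 0.11 was not called as deposited (limma, 95% interval -0.08 to 0.29, adjusted p = 0.325), but it depended on scaling: it was 0.30 after quantile normalization (limma adjusted p = 0.0147) and 0.25 with aligned array medians (limma adjusted p = 0.0347), and was called in both.

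*AUR1* encodes the catalytic subunit of inositol phosphorylceramide synthase, which is essential and is the target of the antifungal aureobasidin A. It was the member with the widest spread. Its signals were 1415, 1777, 2148 and 1956 with gentamicin, against 1487, 2759, 2647 and 3343 in controls. Control 1 fell among the gentamicin arrays, while the other 3 controls lay above all of them. With all arrays the difference was -0.45 (limma, 95% interval -0.97 to 0.08, adjusted p = 0.148) and was not called. Without control 1 it was -0.69 and was called (limma adjusted p = 0.00622), and without both control 1 and gentamicin 5 it was -0.57 (limma adjusted p = 0.00418). With all arrays kept but weighted by their quality in limma, *AUR1* was also called (-0.52, limma adjusted p = 0.0197), so its call depends on control 1 and on the fit.

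*KEI1*, the regulatory partner of Aur1, had its lowest value on gentamicin 5: 166.6, 225.4, 298.7 and 295.8 with gentamicin, against 283.7, 320.5, 258.4 and 331.6 in controls. Its difference of -0.31 was not called (limma adjusted p = 0.209), and without gentamicin 5 it was -0.13 (limma adjusted p = 0.470). The change of *AUR1* relative to *KEI1*, -0.14, was smaller than the spread between arrays (exact permutation p = 0.6, adjusted over 11 pairs 0.733). Without control 1 it was -0.36 and the groups did not overlap (exact permutation, adjusted p = 0.105), a design whose smallest unadjusted p is 0.0571.

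Mannose is added to inositol phosphorylceramide by complexes of the regulatory subunit Csg2 with 1 of the paralogous catalytic subunits Sur1 and Csh1. *CSG2* had 3927, 3698, 3794 and 3469 with gentamicin, against 3774, 3470, 3685 and 3408 in controls. The ranges nearly coincided, and the difference of 0.05 was not called (limma, 95% interval -0.09 to 0.20, adjusted p = 0.511). With aligned array medians it was 0.20 and was called (limma adjusted p = 0.0384).

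*SUR1* had 513.2, 539.6, 431.6 and 447.2 with gentamicin, against 564.9, 584.4, 459.3 and 466.2 in controls. Both groups held a higher and a lower pair of arrays, which overlapped, and the difference of -0.10 was not called (limma, 95% interval -0.36 to 0.16, adjusted p = 0.500). Its paralog *CSH1* differed by 0.01 (limma adjusted p = 0.966). *SUR1* minus *CSH1* changed by -0.11 (exact permutation p = 0.486, adjusted 0.733), and *CSG2* minus *SUR1* by 0.16 (exact permutation p = 0.257, adjusted 0.471), and neither passed.

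*IPT1* encodes the transferase that adds the last inositol phosphate of the pathway. It had 265.8, 552.3, 514.3 and 550.5 with gentamicin, against 497.5, 581.5, 534.6 and 575.1 in controls. Gentamicin 5 was far below the other 7 arrays, which otherwise overlapped. The difference of -0.27 (limma, 95% interval -0.77 to 0.22, adjusted p = 0.335) was -0.02 without gentamicin 5 (limma adjusted p = 0.872). *IPT1* minus *SUR1* changed by -0.17 (exact permutation p = 0.8, adjusted 0.8), and without gentamicin 5 the sign turned, to 0.11 (exact permutation, adjusted p = 0.629).

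**Figure D2:**
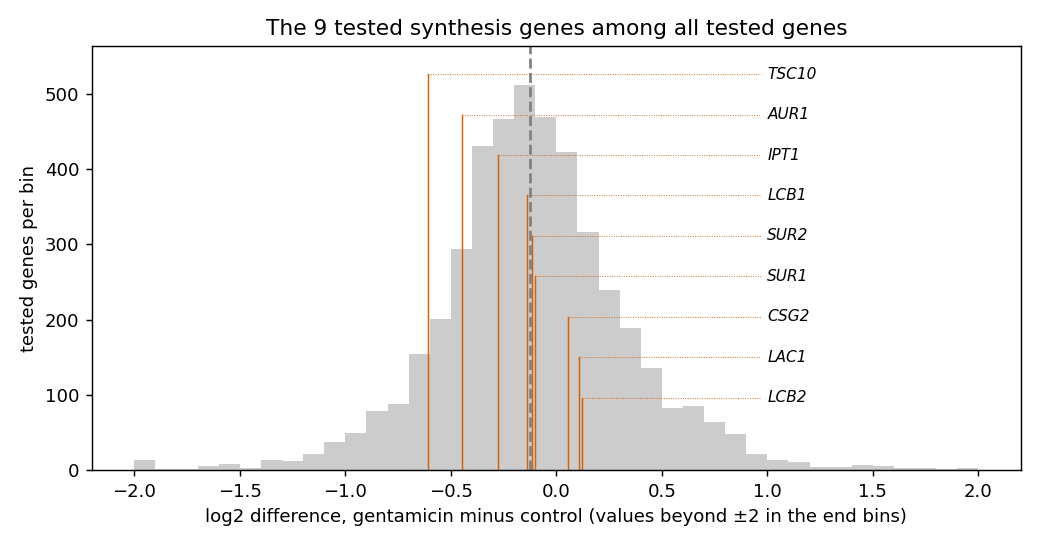
Distribution of the log2 difference, gentamicin minus control, over the 4524 tested genes (grey bars, number of genes per bin), with the 9 tested synthesis genes as orange lines and the median of all tested genes, -0.12, dashed. *TSC10* lies at -0.61, *AUR1* at -0.45 and *IPT1* at -0.27, and the other 6 members between -0.14 and 0.12.

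**Figure D3:**
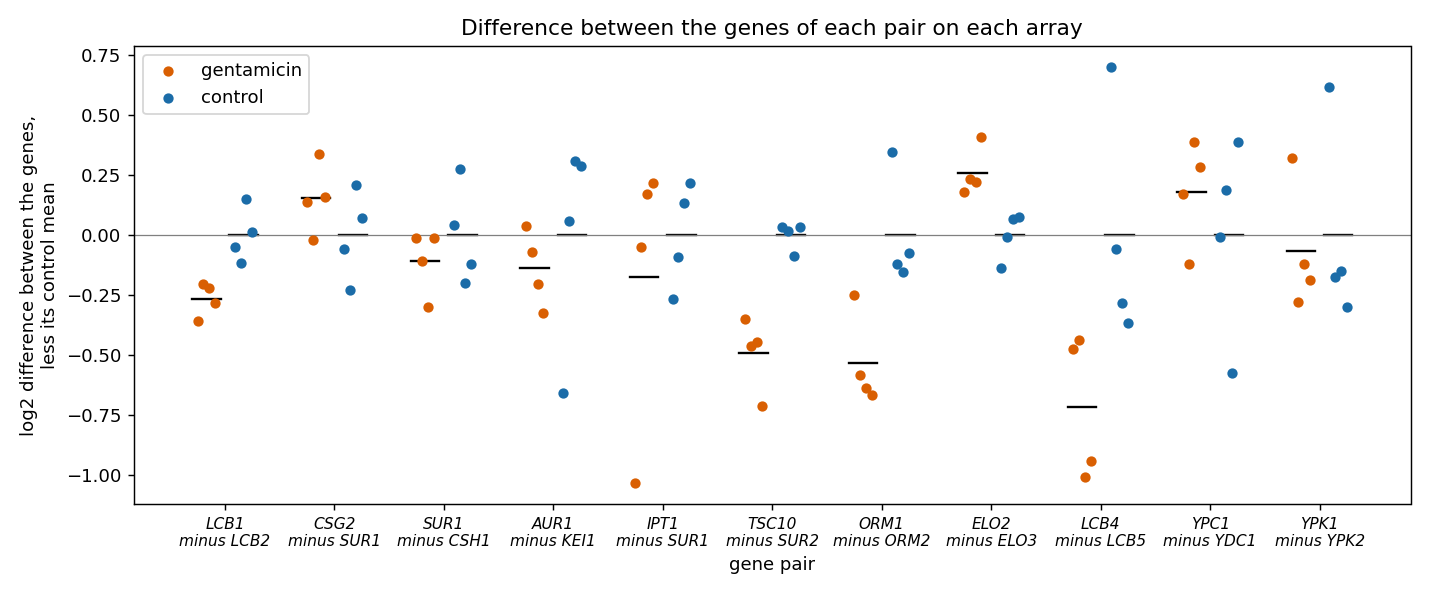
Log2 difference between the genes of each of 11 pairs on each array, less the mean of that difference over the control arrays (vertical axis), for gentamicin (orange) and control (blue), with group means as black bars. The groups lie apart for 5 pairs, among them *LCB1* with *LCB2* and *TSC10* with *SUR2*. No share over other gene pairs was computed. For single genes, the groups lay apart for 44.8% of all tested genes.

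The 49 further pathway genes fell into 6 lists, of which 42 genes passed the filter. The counts of each list stand beside 15.5% higher and 31.3% lower among all tested genes. Complex partners and regulators of synthesis had 1 gene higher and 2 lower of 8 tested. *LIP1*, the subunit that ceramide synthase needs beside Lag1 or Lac1, had 3189, 3046, 2939 and 2927 with gentamicin, against 3672, 3371, 3623 and 3546 in controls. No gentamicin array reached the lowest control, and *LIP1* fell by 0.23 on the log2 scale (limma adjusted p = 0.00931), a call that was lost with aligned array medians (-0.09, limma adjusted p = 0.303). *SKN1*, a membrane protein linked to the last step of complex sphingolipid synthesis, rose 1.20-fold (limma adjusted p = 0.00886).

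Orm1 and Orm2 are paralogous inhibitors of serine palmitoyltransferase. *ORM1* had 1002, 739.6, 762.3 and 758.3 with gentamicin, against 1084, 1019, 1078 and 1096 in controls. Gentamicin 5 lay close to the controls and the other 3 well below, and *ORM1* fell 1.32-fold (limma adjusted p = 0.0107). That call was lost after quantile normalization (-0.28, limma adjusted p = 0.0607) and with aligned array medians (-0.26, limma adjusted p = 0.0876). *ORM2* differed by 0.13 (limma adjusted p = 0.321), by 0.02 without control 1 (limma adjusted p = 0.763), and by 0.28 with aligned array medians, where it was called (limma adjusted p = 0.0443). Relative to *ORM2*, *ORM1* changed by -0.53 on the log2 scale, with no overlap between groups (exact permutation p = 0.0286, adjusted over 11 pairs 0.0629). These paralogs lie far apart in signal, and after quantile normalization *ORM2* differed by 0.04 (limma adjusted p = 0.795), beside the -0.28 of *ORM1*. The part of the wider spread with gentamicin in this pair change was not tested.

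Ceramide synthase draws on very long chain fatty acids, and serine palmitoyltransferase on serine. Of 6 tested elongation genes, 1 was lower and none was higher: *ELO3*, the elongase that makes the longest chains, had 2172, 2089, 2105 and 1945 with gentamicin, against 2780, 2694, 2736 and 2842 in controls. It fell 1.33-fold with no overlap (limma adjusted p = 0.0005), and its paralog *ELO2* differed by -0.15 and was not called (limma adjusted p = 0.122). *ELO2* minus *ELO3* changed by 0.26 with no overlap, and did not pass (exact permutation p = 0.0286, adjusted over 11 pairs 0.0629). Of the 4 serine genes, *SER2*, the phosphatase of the last step of serine synthesis, had 444.5, 394.5, 420.6 and 410.4 with gentamicin, against 667.2, 605, 632.7 and 636.1 in controls, and fell 1.52-fold (limma adjusted p = 0.000187). *SER3*, a dehydrogenase of the entry step, rose 1.15-fold (limma adjusted p = 0.0439), a call that was lost when any of 6 single arrays was left out (limma adjusted p from 0.0569 to 0.117).

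Among genes that break down ceramides and long-chain bases or phosphorylate the bases, 3 of 8 tested were higher and 1 was lower, where 15.5% of all tested genes were higher and 31.3% lower. The list's median difference was 0.26, against -0.12 over all tested genes. That median rests in part on *LCB3* (0.21) and *LCB5* (0.15), neither called, which were over 1.5-fold lower on control 1 than on the other controls. With single arrays left out, their differences went as low as -0.18 for *LCB3* and -0.05 for *LCB5*. The list's median without control 1 was not computed. The ceramidase paralogs were both higher. *YPC1* had 1569, 1464, 1878 and 1775 with gentamicin, against 1262, 1285, 826.2 and 1412 in controls, and rose 1.42-fold (limma adjusted p = 0.0304). The call was lost without gentamicin 7 (limma adjusted p = 0.0766) or gentamicin 8 (limma adjusted p = 0.073), and without control 3, its lowest array, the log2 difference was 0.34 instead of 0.50 (limma adjusted p = 0.0296). *YDC1* had 3932, 4498, 4053 and 4117, against 3578, 3184, 3477 and 3046 in controls, and rose 1.25-fold with no overlap (limma adjusted p = 0.00581). *YPC1* minus *YDC1* changed by 0.18 (exact permutation p = 0.6, adjusted 0.733). *DPL1*, the lyase that cleaves phosphorylated long-chain bases, had 4440, 4115, 4809 and 4707, against 3609, 3426, 3674 and 3787 in controls, and rose 1.25-fold (limma adjusted p = 0.0042). *HFD1*, a fatty aldehyde dehydrogenase further down the same route, differed by 0.33 and was not called (limma adjusted p = 0.0792). Without gentamicin 7, its lowest array with the drug, it differed by 0.49 and was called (limma adjusted p = 0.00104).

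Of the paralogous long-chain base kinases, 1 was called. *LCB4*, the major kinase, had 340.4, 416.7, 322.6 and 299 with gentamicin, against 544.2, 524.2, 503.1 and 451.9 in controls, and fell 1.48-fold (limma adjusted p = 0.00361). Under the 18 alternatives with a value for *LCB4* the call held, with log2 differences from -0.66 to -0.34 (limma adjusted p up to 0.0418). Its paralog *LCB5* had 1082, 1292, 1485 and 1314, against 766.3, 1249, 1402 and 1333 in controls, and was not called (limma adjusted p = 0.535). Relative to *LCB5*, *LCB4* changed by -0.71 on the log2 scale (exact permutation p = 0.0286, adjusted over 11 pairs 0.0629), or -0.48 without control 1, where *LCB5* was low. These paralogs also differ in signal, and the part of the wider spread with gentamicin in their pair change was not tested.

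*RSB1*, a membrane protein known for the release of long-chain bases from the cell, lay below the signal filter and was singled out after its values were seen. Its signals were 195.4, 203.5, 199.3 and 193.6 with gentamicin, against 98.4, 108.8, 108.6 and 112.6 in controls. The groups were far apart, and without the filter *RSB1* rose 1.85-fold (limma adjusted p = 8.9e-05 over 5656 genes, of which 42.8% were called). The control values stand only slightly above the brightest array control for absent sequences, at 89.5, and the size of the change is not resolved.

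**Figure D4:**
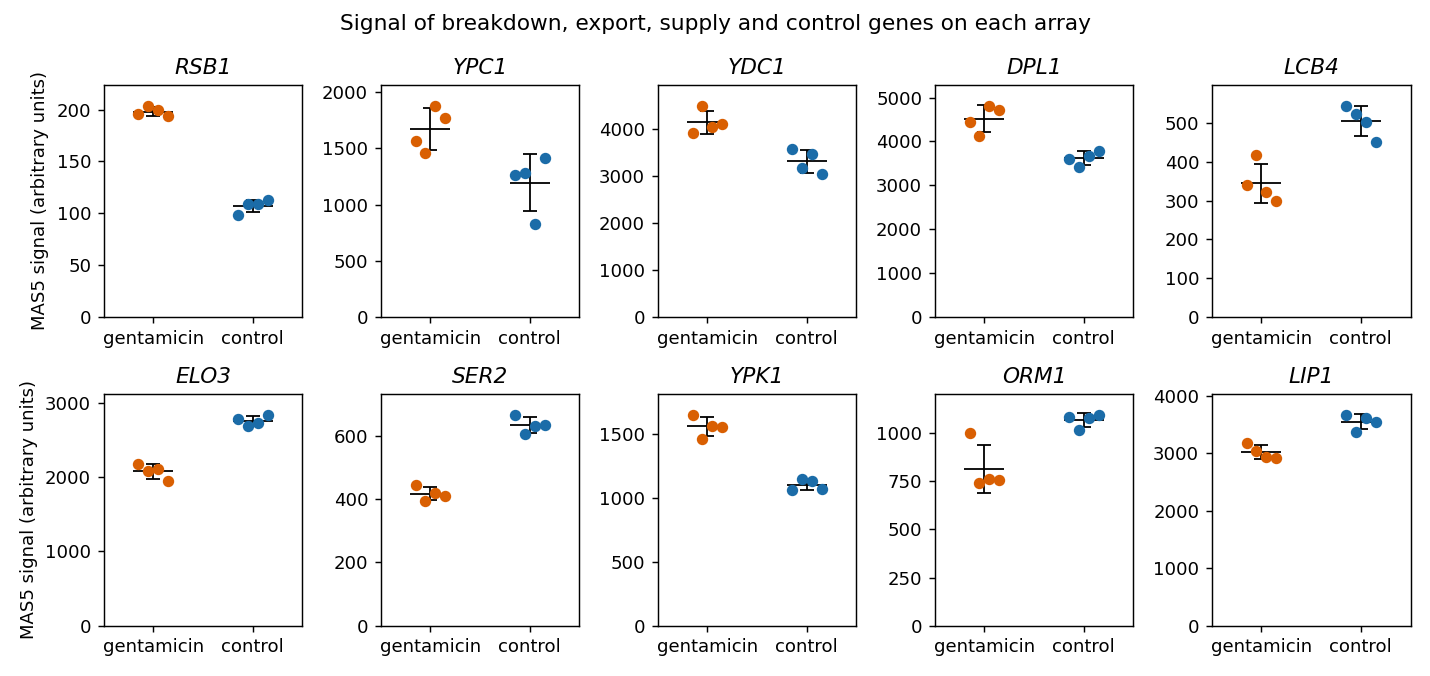
MAS5 signal in arbitrary units (vertical axes, from 0 and separate for each gene) of 10 pathway genes outside the synthesis set on the 4 gentamicin arrays (orange) and the 4 control arrays (blue), with each group's mean and SD. *RSB1*, *YPC1*, *YDC1*, *DPL1* and *YPK1* are higher with gentamicin, and *LCB4*, *ELO3*, *SER2*, *ORM1* and *LIP1* are lower. The groups of these 10 genes do not overlap. All were picked from the called genes except *RSB1*, named after its values were seen, so the separation follows in part from the choice. Groups lay apart for 44.8% of all tested genes. Those of the called gene *TSC11*, not shown, overlapped.

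Sphingolipid synthesis is held in balance by the kinase complex TORC2 and its substrates Ypk1 and Ypk2, which act on the Orm proteins and on ceramide synthase. Of 13 tested genes of this signalling, 1 was higher and 1 was lower, where 46.8% of all tested genes were called in either direction. *YPK1* had 1654, 1467, 1568 and 1561 with gentamicin, against 1063, 1148, 1135 and 1075 in controls, and rose 1.41-fold with no overlap (limma adjusted p = 0.0003). *YPK2* had 352, 473, 453.3 and 473.5, against 184.3, 344.5, 334.7 and 352.4 in controls. It differed by 0.56 and missed the threshold (limma adjusted p = 0.0527), but it was called under 8 of 18 alternatives. Among these were quantile normalization (0.79, limma adjusted p = 0.0124), aligned array medians (0.71, limma adjusted p = 0.0195) and leaving out control 1 (0.34, limma adjusted p = 0.0469). *YPK1* minus *YPK2* changed by -0.06 (exact permutation p = 0.8, adjusted 0.8), so no unequal change of these paralogs was seen. *TSC11*, a TORC2 subunit, fell by 0.37 on the log2 scale (limma adjusted p = 0.0245), and its call was lost after quantile normalization (-0.15, limma adjusted p = 0.361), with aligned array medians (-0.23, limma adjusted p = 0.158) and without gentamicin 6, control 1, control 2 or control 4 (limma adjusted p from 0.0522 to 0.0679). Of 3 tested transport genes, *PDR5*, a drug exporter of the plasma membrane, rose 1.25-fold with its brightest probe set (limma adjusted p = 0.00569), but its 6 other probe sets gave differences from -0.12 to 0.34, and the median over all of them gave -0.08 (limma adjusted p = 0.758).

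**Figure D5:**
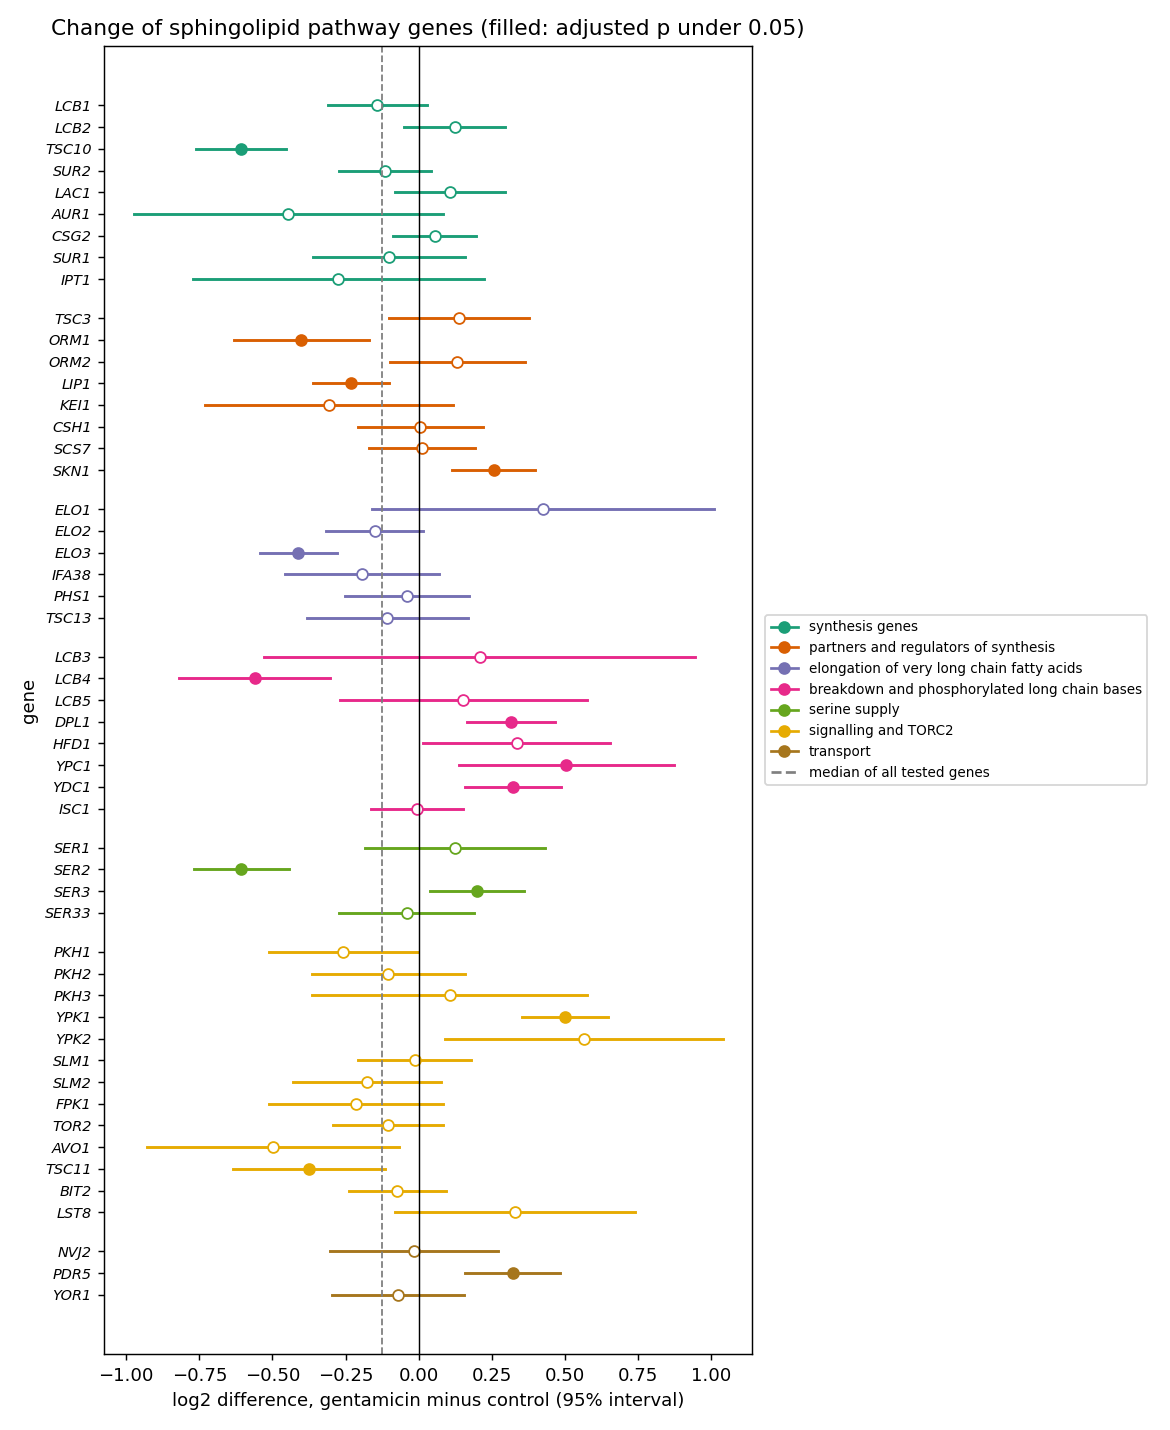
Log2 difference, gentamicin minus control, with its 95% interval (horizontal axis) for the tested genes of each list (vertical axis, colours); filled points have an adjusted p under 0.05 and the dashed line is the median of all tested genes. Of the synthesis genes *TSC10* alone is filled, and *AUR1* and *IPT1* have the widest intervals among them.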

How the data were processed

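The values deposited are linear signal intensities, 1 for each probe set on each array. The authors made them with MAS5, per the submitters' processing notes, where no version or setting is named. The mean of each array without its lowest and highest 2% of probe sets lay between 1000.6 and 1000.7, so arrays had been scaled to a common mean. Of 9335 probe sets, 60 are array controls, 6504 have 1 gene in the platform annotation, all matched by identifier to the RefSeq R64 gene table, and 328 have several. No build is named for the signals, and no coordinates are given.

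Signals were taken to log2 without an offset. A gene was represented by its brightest probe set on average, and the dimmest 20% of genes were dropped, leaving 4524. Gentamicin minus control was fitted with limma 3.58.1 in R 4.3.3 (lmFit, eBayes with a variance trend). The labels give no batch. For gene pairs, within-array differences were tested by exact permutation (two-sided) in scipy 1.17.1. Of 13 pairs, 11 had both genes above the filter. The fit was tested on simulated data with independent noise. That simulation held no group difference in median signal or spread and no outlying arrays, so it does not bear on these features of the data. The number of arrays limits the precision.

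The members, lists and pairs were chosen with earlier results of these data known. Named were all members, up to 4 called genes per list and direction, both genes of each pair tested, and the 2 genes most like each called member. *RSB1*, *HFD1*, the genes with single outlying arrays and some probe set checks were named after their values were seen. Alternatives were quantile normalization, array medians of tested genes aligned, an offset of 8.17 signal units, no filter, a 40% filter, array weights, no variance trend, the median of a gene's probe sets, an adjusted p under 0.01, each array left out, and values over 2 log2 units below their group's other arrays set to missing. Leaving out control 1 and gentamicin 5 together was added after seeing the data.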

Additional observations from a re-analysis of the deposited data

Results flagged for a closer look

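Among 118 groups of 4 arrays (59 pathway genes in 2 groups), 10 held an array whose gap to its nearest neighbour as a share of the group's range passed Dixon's 95% critical value; by chance about 1 in 20 groups would. Of these, 3 were low values on gentamicin 5: *IPT1* at 265.8 (others 514.3 to 552.3), *TSC13*, an enzyme of fatty acid elongation, at 2067 (others 2519 to 2540), and *YPK2* at 352 (others 453.3 to 473.5). Low values on control 1 were *YPK2* at 184.3 (others 334.7 to 352.4) and *LST8*, a TORC2 subunit, at 1043 (others 1723 to 1760). *ORM1* was high on gentamicin 5 at 1002 (others 739.6 to 762.3). The remaining values were *ELO2* at 815.6 on gentamicin 8, *ISC1* at 1201 on gentamicin 6, *SLM2* at 487.1 on control 2 and *TSC11* at 367.5 on control 3.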

How the results depend on the processing

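*TSC10* kept its direction and its call under all 19 alternatives, with differences from -0.64 to -0.46. No member was called higher as deposited, but quantile normalization gave 1 (*LAC1*), aligned array medians gave 3 (*LCB2*, *LAC1* and *CSG2*), and leaving out single arrays gave 0 to 1. Members called lower numbered 2, *TSC10* and *AUR1*, with array weights (*AUR1* limma adjusted p = 0.0197) and without control 1 and gentamicin 5 together, and 1 to 2 on leaving out single arrays. Among the members, signs that turned, none of them called, were *LCB1* (0.005), *SUR2* (0.0302) and *SUR1* (0.0451) with aligned medians and *SUR1* (0.10) after quantile normalization; of the other genes called as deposited, *PDR5* turned to -0.0821 with the median over probe sets. Of 29 other tested pathway genes that were not called, 17 turned sign under at least 1 alternative, in 0 cases with a call in limma. Aligning medians or quantiles moves the median of all genes, which was -0.12 as deposited, -0.02 after quantile normalization and 0.02 with aligned medians. Over all genes, 702 were higher and 1414 lower as deposited, 850 and 894 after quantile normalization, 1079 and 799 with aligned medians, 915 lower at an adjusted p under 0.01, and 603 to 693 higher and 1209 to 1360 lower with single arrays left out. The breakdown list had 2 to 3 genes higher with single arrays left out, 4 higher with aligned medians, array weights or no filter, and 0 lower with the lowest 40% left out, since *LCB4* then fails the filter. Of 11 pairs, 0 passed after adjustment in the exact permutation tests under any alternative run, while 5 had an unadjusted p under 0.05. No share over other gene pairs was computed. With 3 against 4 arrays the smallest p is 0.0571, so no pair could pass there. No paired analysis was possible because the groups share no replicate numbers. Signals near those of absent-sequence controls, as for *LAG1*, limit what the arrays resolve.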
